A study of Mus musculus with 6 samples.

Results

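Cell cycle and DNA replication genes were examined in heart ventricle RNA of mice without Hspa4, which encodes a heat shock protein of the Hsp110 family that assists Hsp70 chaperones. The genes were 36 named members covering DNA replication, mitosis, the cyclins and kinases of the G1 phase, and inhibitors of the cycle, matched to probe sets by gene symbol. Of the 36, 34 had a probe set among the 20239 genes tested. Pcna and Ccnb1 were not analysed here. The study hybridised ventricle RNA to 6 Affymetrix Mouse Gene 1.0 ST arrays, 3 labelled Hspa4-/- and 3 labelled Hspa4+/+, with 3 mice given for each genotype. All mice were labelled male, of the strain 129/Sv and 3.5 weeks old, and the labels name no treatment and no Cre driver. The labels do not describe how the allele was made, and whole ventricle holds muscle, vessel, stromal and blood cells together.

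The mammalian cell cycle is driven by cyclins and the kinases they activate. In G1, D-type cyclins with Cdk4 and Cdk6, and then cyclin E with Cdk2, release E2F factors, which switch on genes for DNA synthesis. Cyclin A and cyclin B with Cdk1 then carry the cell through G2 and mitosis. Mouse cardiomyocytes divide before birth and largely leave the cycle in the weeks after it, so dividing cells of a young ventricle include many that are not muscle. The inhibitors p21 (Cdkn1a), p27 (Cdkn1b) and p57 (Cdkn1c) hold cyclin-kinase complexes in check, and Meis1 is a homeobox factor known for restraining cardiomyocyte division after birth.

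The check of the labels came before the genes of interest. As deposited log2 values, Hspa4 was at 9.33 in Hspa4-/- replicate 1, 6.63 in replicate 2 and 6.75 in replicate 3. It was at 9.74, 9.50 and 9.48 in the Hspa4+/+ mice. The array labelled Hspa4-/- replicate 1 thus lay near the wild-type level and went against its label. Its Xist value was also apart, at 7.68 against 5.51 to 5.69 on the other 5 arrays, although all 6 were labelled male. Y-linked genes were read on it as well, with Eif2s3y at 7.96 against 8.23 to 8.39 elsewhere, Uty at 7.92 against 8.15 to 8.57 and Kdm5d at 6.85 against 6.77 to 7.10. Each result is therefore given on all 6 arrays and on the 5 arrays without that one. With all 6 arrays, Hspa4 differed by −2.01 (SE 0.58, limma adjusted p = 0.263), and on 5 arrays it was 7.40-fold lower (difference −2.89, SE 0.095, limma adjusted p = 9.37e-06). Array medians ran from 6.43 to 6.48, and pairs of arrays shared 10 to 28 identical values of 20239, so none was a copy of another.

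No cell cycle member passed an adjusted p of 0.05 in limma, on 6 arrays or on 5. Across all genes, 0% passed on 6 arrays and 0.44%, or 89 genes, on 5. At an unadjusted p under 0.05 there were 4 of 34 members on 6 arrays, or 11.8%, against 11.2% of all genes. On 5 arrays there were again 4, or 11.8%, against 14.9% of all genes. The members' shares lay close to, or under, those of the array as a whole. Leaving out Hspa4+/+ replicate 2 brought the number of all genes past the threshold to 112 on 6 arrays and 875 on 5, and no member was among them.

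Differences between genotypes were small. All 34 members differed by less than 0.25 log2 units on 6 arrays, and 32 of 34 did on 5 arrays. The 95% confidence interval lay inside a 1.5-fold change in either direction for 33 of 34 members on 6 arrays, Cdkn1a being the exception, and for 34 of 34 on 5 arrays. Within 1.25-fold the counts were 25 and 24. Changes of 1.5-fold in the array values were therefore outside the intervals of nearly every member. Changes of 1.25-fold were inside those of 9 members on 6 arrays and 10 on 5. Of the 34 members 19 lay in the lowest 50% of genes by mean value, and signal over background is unknown. The intervals therefore bound differences in array values and not in RNA amount.

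**Figure D1:**
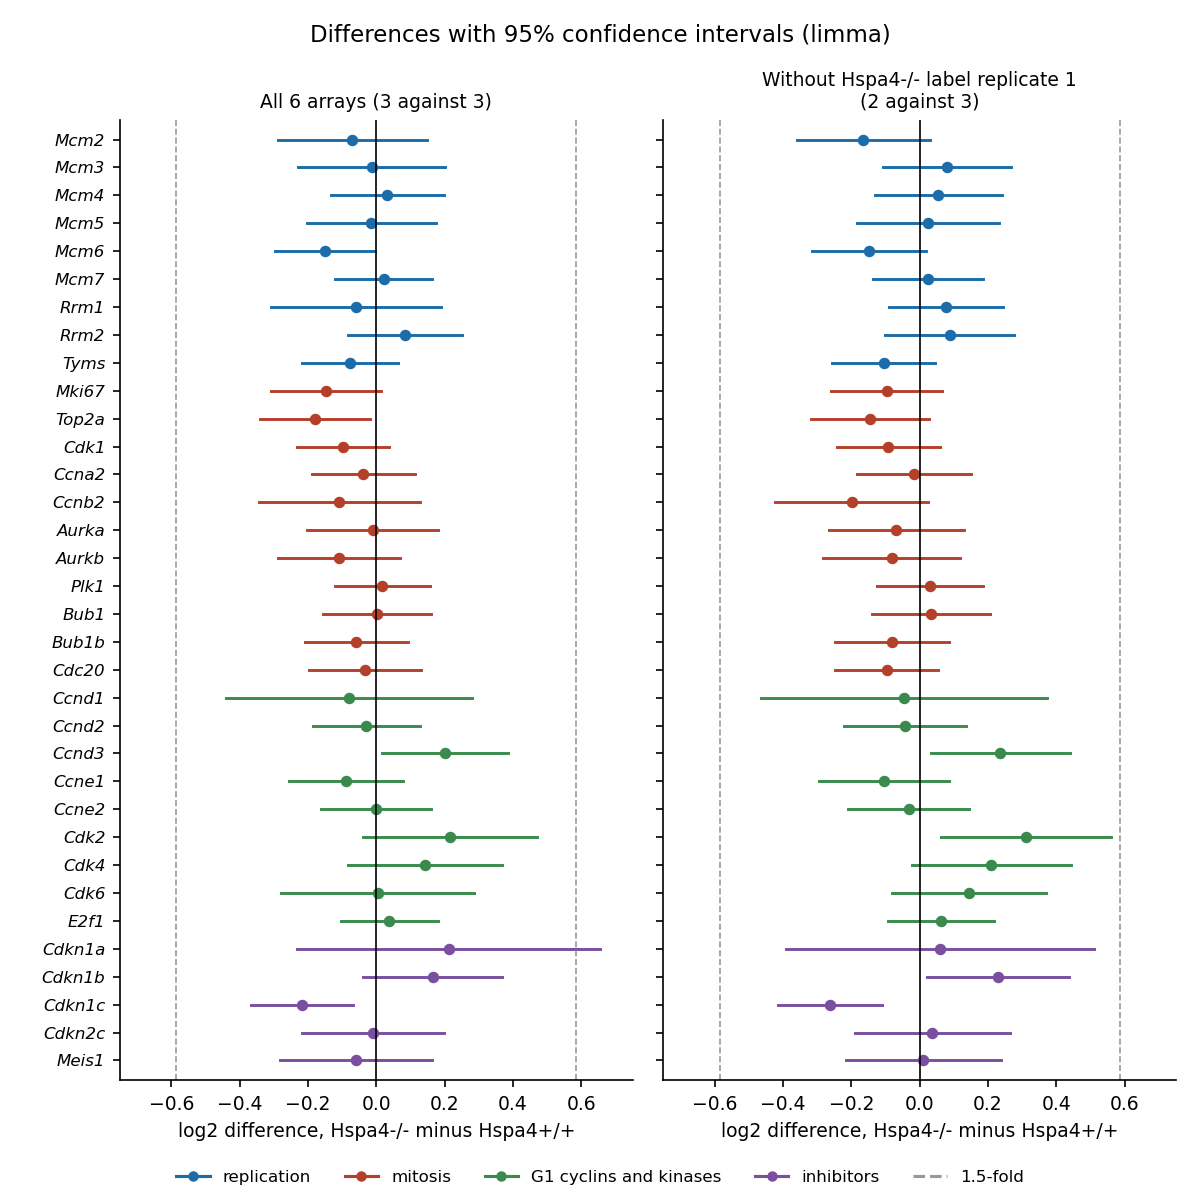
Difference of each member between genotypes (log2, Hspa4-/- minus Hspa4+/+) with its 95% confidence interval from limma, on 6 arrays (left) and without the array labelled Hspa4-/- replicate 1 (right), coloured by role. Dashed lines mark 1.5-fold; on 6 arrays the interval of Cdkn1a alone crosses one, and Cdkn1c has an interval wholly below 0 in both panels.

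The balance of directions differed between the 6 arrays and the 5. On 6 arrays 22 of 34 were lower in the Hspa4-/- group and the median difference was −0.022, beside −0.0094 over all genes. On 5 arrays 17 of 34 were lower, with a median of −0.0032 beside −0.018 over all genes. Groups did not overlap for 6 members on 6 arrays, or 17.6% of members, against 15.1% of all genes. All 6 were lower (Cdkn1c, Top2a, Mki67, Cdk1, Mcm6 and Tyms), while over all genes 9.07% were lower without overlap and 6.08% higher. On 5 arrays 12 members did not overlap, 8 lower and 4 higher, or 35.3% against 33.3% of all genes (18.9% lower and 14.4% higher). The array labelled Hspa4-/- replicate 1 held the lowest value of 11 members, more than any other array. The same count over all genes was not made, so whether this is particular to the members is unknown.

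**Figure D2:**
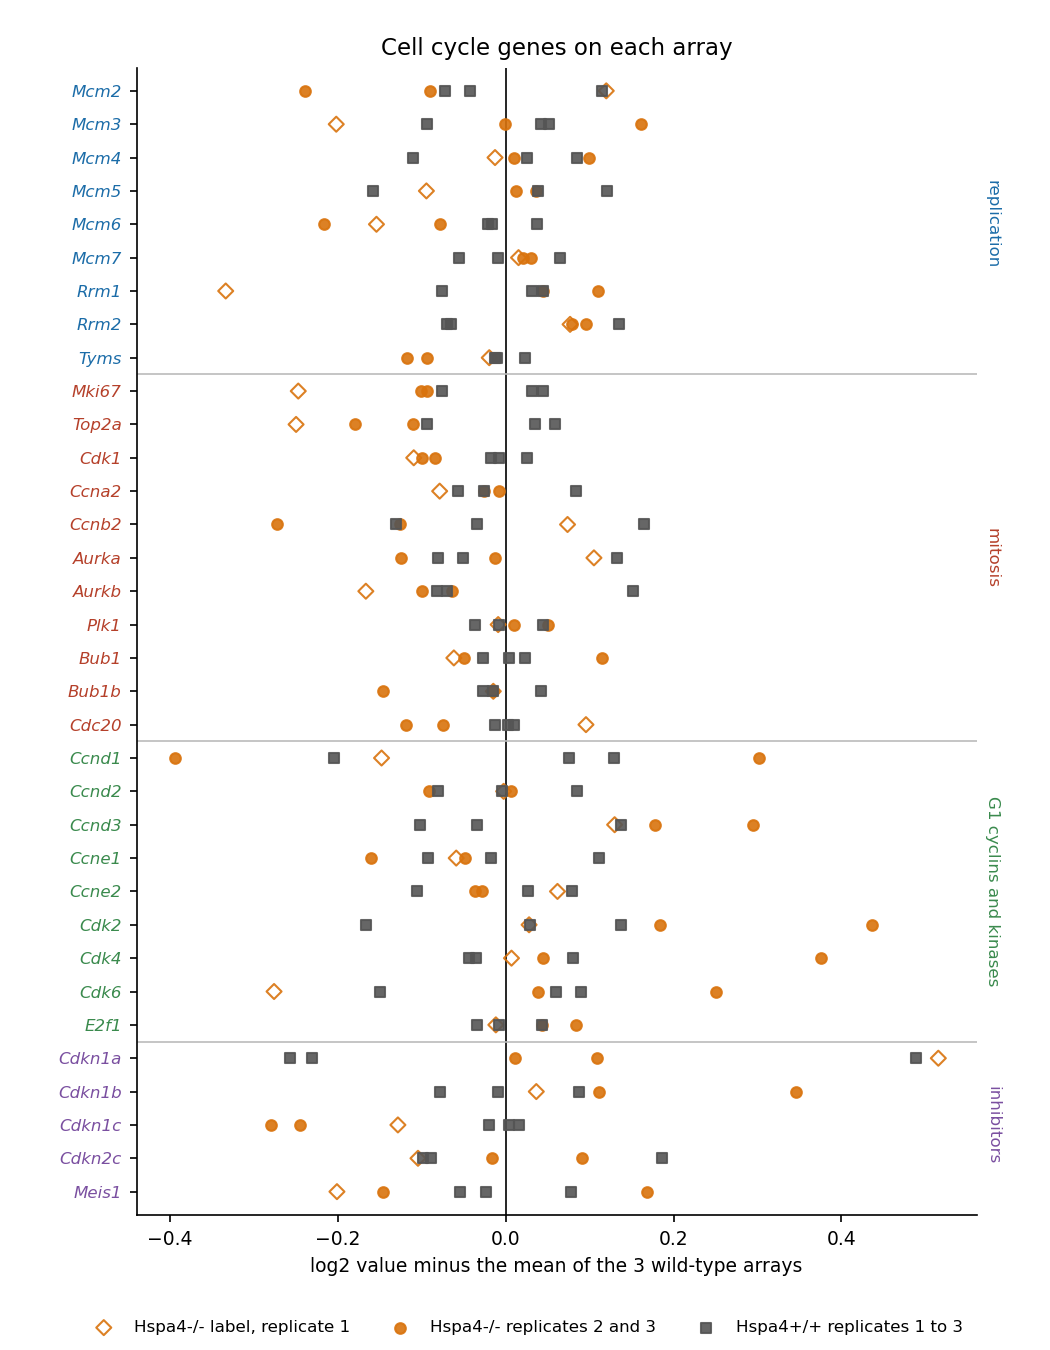
Log2 value of each member on each array, minus the mean of the 3 wild-type arrays, in order of role. The open diamonds, for the array labelled Hspa4-/- replicate 1, hold the lowest value of 11 of 34 members, and most points of both genotypes interleave. The same count over all genes was not made.

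Promoters are shown before the values of the mitosis members, which had the lowest median of the 4 roles. Those printed were picked for the most motif matches among the members given with values on every array. They are Top2a, Cdk1, Ccnb2 and Mki67 of mitosis and Mcm6 of replication, and they do not stand for all members. Of the 34 measured members, 27 had a promoter in RefSeq (GRCm38.p6), covering 250 bases before to 50 after the gene's start. Each stretch below holds the 250 bases before the start, 5′ to 3′ on the gene's strand. Capitals mark letters of 3 motifs on either strand: E2F (TTTCCCGC, TTTCGCGC, TTTGCCGC or TTTGGCGC, reverse GCGGGAAA, GCGCGAAA, GCGGCAAA or GCGCCAAA), the cell cycle homology region or CHR (TTTGAA, reverse TTCAAA), and the CCAAT box (CCAAT, reverse ATTGG). E2F letters are those that E2F factors bind in G1 and S phase genes, and CHR and CCAAT letters are known from genes that peak in G2 and mitosis. The stretches are Top2a chr11:99024190-99024439, Cdk1 chr10:69352913-69353162, Ccnb2 chr9:70421555-70421804, Mki67 chr7:135716380-135716629 and Mcm6 chr1:128359706-128359955, all on the minus strand.
Top2a: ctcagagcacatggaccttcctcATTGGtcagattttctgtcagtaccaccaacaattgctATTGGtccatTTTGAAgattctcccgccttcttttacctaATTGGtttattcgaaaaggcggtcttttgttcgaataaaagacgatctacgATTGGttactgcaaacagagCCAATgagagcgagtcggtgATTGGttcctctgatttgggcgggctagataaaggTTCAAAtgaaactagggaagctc
Cdk1: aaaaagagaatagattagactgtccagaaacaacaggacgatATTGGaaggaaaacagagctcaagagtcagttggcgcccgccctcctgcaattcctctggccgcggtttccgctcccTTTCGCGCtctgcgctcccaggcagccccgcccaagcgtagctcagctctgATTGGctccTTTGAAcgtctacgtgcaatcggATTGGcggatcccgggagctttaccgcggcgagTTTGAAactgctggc
Ccnb2: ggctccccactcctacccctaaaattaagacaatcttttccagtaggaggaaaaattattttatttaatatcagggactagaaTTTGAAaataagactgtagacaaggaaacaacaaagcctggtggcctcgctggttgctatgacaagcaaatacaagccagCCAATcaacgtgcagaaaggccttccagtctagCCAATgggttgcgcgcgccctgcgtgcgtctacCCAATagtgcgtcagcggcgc
Mki67: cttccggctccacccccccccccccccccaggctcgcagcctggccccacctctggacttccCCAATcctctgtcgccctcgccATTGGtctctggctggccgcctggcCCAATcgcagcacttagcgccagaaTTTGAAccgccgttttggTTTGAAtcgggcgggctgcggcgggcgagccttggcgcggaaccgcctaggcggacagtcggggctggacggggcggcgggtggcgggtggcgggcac
Mcm6: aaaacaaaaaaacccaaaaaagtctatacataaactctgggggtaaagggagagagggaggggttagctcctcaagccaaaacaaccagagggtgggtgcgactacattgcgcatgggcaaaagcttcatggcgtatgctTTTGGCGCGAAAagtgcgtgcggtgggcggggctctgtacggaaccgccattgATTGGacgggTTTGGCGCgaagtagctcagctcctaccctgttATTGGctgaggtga

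CHR letters lay mostly in mitosis members and E2F letters mostly in replication members, while CCAAT letters were spread over the roles. All 9 mitosis members with a promoter held CCAAT letters and 8 of 9 held CHR letters, Bub1 being the exception, while 1 of 9, Cdk1, held E2F letters. Of 8 replication members, 7 held CCAAT, 4 held E2F (Mcm3, Mcm5, Mcm6 and Mcm7) and 1, Mcm2, held CHR. Of 6 G1 members, 2 held CCAAT, 1, Cdk2, held E2F, and 4 held none of the 3 motifs. Of 4 inhibitors with a promoter, 3 held CCAAT and 0 held E2F or CHR. Top2a showed 6 CCAAT and 2 CHR matches in its stretch, and Mcm6 3 E2F matches, 2 of which overlap on opposite strands.

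The share of members was set beside that of all 32851 RefSeq promoters of the same length, and of the 15651 genes tested here that had one. E2F letters were in 6 of 27 members, or 22.2%, against 2.26% of all promoters and 3.45% of genes tested. CHR letters were in 9 of 27, or 33.3%, against 17.9% and 17.4%. CCAAT letters were in 21 of 27, or 77.8%, against 37.4% and 41.9%. The 9 members with CHR letters, 8 of them mitosis genes, were lower in 8 of 9 cases on 6 arrays and again on 5, with medians of −0.070 and −0.097. The 18 without were lower in 8 and in 3 cases, with medians of 0.0027 and 0.061. The split by CHR letters thus largely repeated the mitosis role. On 6 arrays, leaving out the lowest 50% of genes by mean value kept 1 of the 9 and 11 of the 18. The letters cannot be told apart here from role or level, and a link to them was not tested. A match of letters describes the sequence, and binding was not measured.

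Mitosis genes read slightly lower in the Hspa4-/- group, without any passing the test. Of 11 measured members 9 were lower on 6 arrays and 9 on 5, with median differences of −0.059 and −0.082. All 11 also lay among the lowest 50% of genes by mean log2 value. Genes of that lowest 50% were themselves lower on balance, with 64.7% of 10119 lower and a median of −0.026 on 6 arrays, and 73.2% lower with a median of −0.048 on 5. Quantile normalisation brought the mitosis median to −0.031 on 6 arrays.

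Mki67 encodes the Ki-67 protein that coats chromosomes of cycling cells and serves as the usual proliferation marker. Its log2 values were 6.25, 6.40 and 6.41 under the Hspa4-/- label (replicates 1, 2 and 3, the order used throughout) and 6.54, 6.42 and 6.53 under Hspa4+/+. The groups did not overlap, but Hspa4+/+ replicate 2 lay only just above 2 of the Hspa4-/- arrays. The difference was −0.15 (SE 0.072, limma adjusted p = 0.491), and −0.097 on 5 arrays (adjusted p = 0.575).

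Top2a encodes the topoisomerase that untangles DNA before chromosomes part. Its values were 5.56, 5.63 and 5.70 under the Hspa4-/- label and 5.87, 5.71 and 5.84 under Hspa4+/+. Again the groups were apart, with Hspa4-/- replicate 3 and Hspa4+/+ replicate 2 nearly level. The difference of −0.18 (SE 0.071, 95% confidence interval −0.34 to −0.020) had an unadjusted p of 0.032 and a limma adjusted p of 0.392, and on 5 arrays it was −0.15 (adjusted p = 0.420).

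Cdk1, the kinase that starts mitosis, read 5.75, 5.76 and 5.77 against 5.88, 5.85 and 5.84. All 3 arrays of each label lay close together, and the gap between labels was −0.098 (SE 0.060, limma adjusted p = 0.607). Cyclin B2 (Ccnb2), a partner of Cdk1, read 6.08, 5.88 and 5.73 against 5.97, 5.87 and 6.17, and the groups overlapped. Its difference was −0.11 on 6 arrays (limma adjusted p = 0.777) and −0.20 on 5 (adjusted p = 0.393), the lowest of the mitosis members there.

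Aurkb, the Aurora kinase of the chromosomal passenger complex, read 6.18, 6.28 and 6.24 against 6.26, 6.28 and 6.50, where Hspa4+/+ replicate 3 was the array apart. Its difference was −0.11 (limma adjusted p = 0.682). The other 6 were cyclin A2 (Ccna2), the Aurora A and Polo-like kinases (Aurka and Plk1), the spindle checkpoint kinases Bub1 and Bub1b, and Cdc20, which activates the anaphase-promoting complex. Their differences ran from −0.059 for Bub1b to 0.017 for Plk1 on 6 arrays. On 5 arrays they ran from −0.097 for Cdc20 to 0.032 for Bub1, and Plk1 and Bub1 were the members on the higher side in both forms.

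Array by array, the mitosis median lay below the wild-type mean by −0.062, −0.064 and −0.10 on Hspa4-/- replicates 1 to 3. On Hspa4+/+ replicates 1 to 3 it was 0.0030, −0.057 and 0.035. The median of the lowest 50% of genes was 0.015, −0.032 and −0.063 on Hspa4-/- replicates 1 to 3. On Hspa4+/+ replicates 1 to 3 that median was −0.0075, −0.030 and 0.036. On the array labelled Hspa4-/- replicate 1 the mitosis members and the lowest 50% thus lay on opposite sides of 0. Hspa4+/+ replicate 2, on which 10 of 11 members were below the wild-type mean, was close to the Hspa4-/- arrays. The spread between wild-type mice was thus about as wide as the difference between labels.

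DNA replication members did not lean either way. Of 9 measured, 6 were lower on 6 arrays and 3 on 5, with medians of −0.015 and 0.025, and none passed the test. These genes encode the MCM helicase that unwinds DNA at origins (Mcm2 to Mcm7), ribonucleotide reductase (Rrm1 and Rrm2) and thymidylate synthase (Tyms), which supply nucleotides.

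Among the helicase subunits, Mcm6 read 5.96, 5.89 and 6.03 under the Hspa4-/- label and 6.09, 6.15 and 6.09 under Hspa4+/+. The groups did not overlap, and the difference was −0.15 on both forms (SE 0.066, unadjusted p = 0.047, limma adjusted p = 0.439 on 6 arrays, and adjusted p = 0.396 on 5). Mcm2 read 6.70, 6.34 and 6.49 against 6.53, 6.50 and 6.69. The array labelled Hspa4-/- replicate 1 was its highest, so that its difference was −0.070 on 6 arrays (limma adjusted p = 0.862) and −0.16 without it (adjusted p = 0.415). The other 4 subunits differed by −0.015 to 0.032 on 6 arrays and by 0.024 to 0.080 on 5, and their groups overlapped. On 6 arrays Mcm6 was the only one of the 6 subunits without overlap between groups, and on 5 arrays Mcm2 was also without overlap.

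Of the nucleotide enzymes, Tyms read 5.994, 5.896 and 5.920 against 6.002, 6.036 and 6.004. The nearest arrays of the groups were almost level, and the difference was −0.077 (limma adjusted p = 0.726) and −0.11 on 5 arrays (adjusted p = 0.504). Rrm1 differed by −0.060 on 6 arrays and 0.077 on 5, a change of sign set by a low value of 7.03 on the array labelled Hspa4-/- replicate 1 beside 7.29 to 7.47 elsewhere. Rrm2 differed by 0.084 and 0.088.

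The cyclins and kinases of G1 included Cdk2, which had the largest positive difference of all members. Of 9 measured, 5 were higher and 4 lower in both forms, with medians of 0.0043 and 0.063, and none passed the test. Genes in the highest 50% by mean value, where 6 of these 9 lay, had medians of 0.022 and 0.037.

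Cdk2, the partner of cyclin E and cyclin A, read 7.28, 7.69 and 7.44 under the Hspa4-/- label and 7.28, 7.39 and 7.08 under Hspa4+/+. The array labelled Hspa4-/- replicate 1 lay among the wild-type arrays and the other 2 above them. The difference was 0.22 on 6 arrays (SE 0.11, limma adjusted p = 0.528) and 0.31 on 5 (SE 0.11, 95% confidence interval 0.062 to 0.56, adjusted p = 0.240).

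Cyclin D3 (Ccnd3) read 7.18, 7.23 and 7.35 against 7.02, 7.19 and 6.95. The lowest Hspa4-/- array and the highest Hspa4+/+ array nearly coincided. Its difference of 0.20 (SE 0.082) had an unadjusted p of 0.035 and a limma adjusted p of 0.405, and on 5 arrays it was 0.24 (adjusted p = 0.264). Cdk4, the kinase that D cyclins activate, read 9.20, 9.23 and 9.56 against 9.14, 9.27 and 9.15. Its difference of 0.14 on 6 arrays (limma adjusted p = 0.671) and 0.21 on 5 (adjusted p = 0.384) lay mainly in Hspa4-/- replicate 3.

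The other D cyclins lay on the lower side of 0, near it. Cyclin D2 (Ccnd2) read 10.48, 10.39 and 10.48 against 10.40, 10.56 and 10.47, with a difference of −0.029 (limma adjusted p = 0.928) and −0.043 on 5 arrays. Cyclin D1 (Ccnd1) read 7.04, 6.80 and 7.49 against 7.27, 6.98 and 7.32, a span of 0.70 within the Hspa4-/- label. That spread left its difference at −0.080 with a 95% confidence interval from −0.44 to 0.28 (limma adjusted p = 0.912), and at −0.046 on 5 arrays.

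Cdk6, the cyclin E genes (Ccne1 and Ccne2) and E2f1, which turns on replication genes, differed by −0.089 to 0.038 on 6 arrays and by −0.10 to 0.14 on 5. Hspa4-/- replicate 3 held the highest value of 4 of the 9 G1 members, and their median there was 0.18 above the wild-type mean, against 0.038 on Hspa4-/- replicate 2 and −0.0025 on the array labelled replicate 1. The 3 Hspa4-/- arrays therefore differed among themselves by more than the genotypes did.

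The inhibitors lay on both sides of 0, and 1 of them had the smallest p of all members. Cdkn1c, the imprinted inhibitor p57, read 8.46, 8.35 and 8.31 under the Hspa4-/- label and 8.60, 8.61 and 8.57 under Hspa4+/+. Every array of the first label was below every array of the second, with means of 8.37 ± 0.079 and 8.59 ± 0.018 (SD, n = 3 each). The difference was −0.22 (SE 0.066, 95% confidence interval −0.37 to −0.069), or 1.16-fold lower, with an unadjusted p of 0.0089 and a limma adjusted p of 0.276. On 5 arrays it was −0.26 (SE 0.066, confidence interval −0.41 to −0.11), or 1.20-fold, with an adjusted p of 0.124. Cdkn1c did not pass the threshold in any alternative, and its difference stayed between −0.32 and −0.19.

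Cdkn1b, or p27, read 6.81, 7.12 and 6.88 against 6.76, 6.86 and 6.69, on the opposite side from Cdkn1c. The difference was 0.16 on 6 arrays (limma adjusted p = 0.554), where the groups overlapped, and 0.23 on 5 (unadjusted p = 0.034, adjusted p = 0.289), where they did not.

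Cdkn1a, or p21, a target of p53, varied most between arrays of 1 genotype. It read 8.84, 8.34 and 8.43 against 8.07, 8.81 and 8.09, so that Hspa4+/+ replicate 2 stood with the array labelled Hspa4-/- replicate 1, well above the other 4. Its difference was 0.21 on 6 arrays (SE 0.20, 95% confidence interval −0.23 to 0.66, limma adjusted p = 0.767) and 0.060 on 5 (adjusted p = 0.923). Without Hspa4+/+ replicate 2 as well it was 0.30 with an adjusted p of 0.0701, so the value rests on that array.

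Meis1 read 8.12, 8.17 and 8.49 against 8.40, 8.27 and 8.30, with both the lowest and the highest array under the Hspa4-/- label. It differed by −0.060 on 6 arrays (limma adjusted p = 0.888) and by 0.011 on 5. Cdkn2c, the p18 inhibitor of Cdk4 and Cdk6, differed by −0.010 and 0.037.

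**Figure D3:**
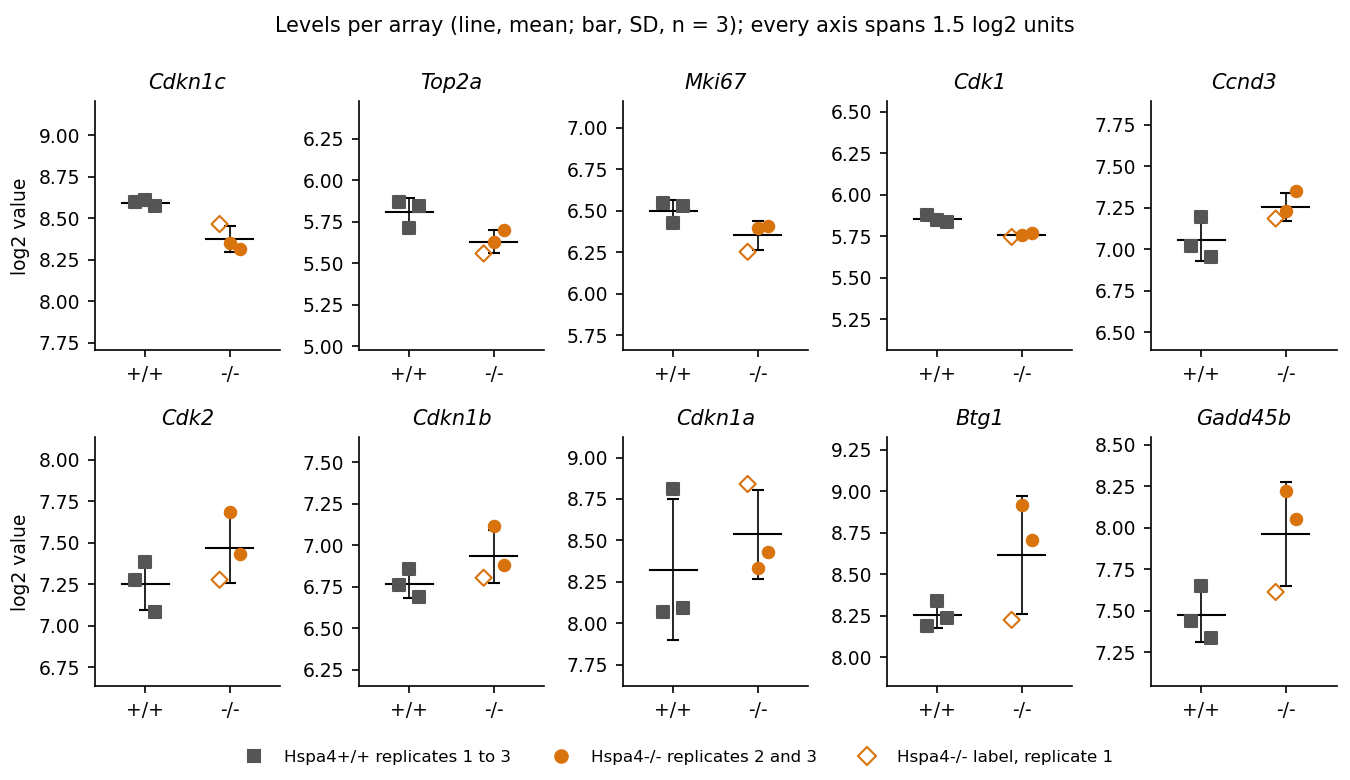
Log2 values on each array for 8 members and for Btg1 and Gadd45b, with the mean and SD of each label (n = 3) and the array labelled Hspa4-/- replicate 1 as an open diamond; every axis spans 1.5 log2 units. Cdkn1c, Top2a, Mki67 and Cdk1 do not overlap between labels, Cdkn1a has 1 high array under each label, and Btg1 and Gadd45b are high on Hspa4-/- replicates 2 and 3 only.

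Further genes of the same pathways were read from 5 lists. None of their 153 measured genes passed the test on 6 arrays, where 0% of all genes did. On 5 arrays 2 of the 153 passed, beside 0.44% of all genes, or 89 of 20239. Both were antiproliferative genes of the list of inhibitors and p53 targets. That list (18 of 20 measured) had medians of 0.014 and 0.019. Btg1, which restrains proliferation, read 8.23, 8.92 and 8.71 against 8.19, 8.34 and 8.24. Gadd45b, a stress-induced growth arrest gene, read 7.61, 8.22 and 8.05 against 7.44, 7.65 and 7.33. For both, Hspa4-/- replicates 2 and 3 were the highest arrays and the array labelled replicate 1 lay among the wild type.

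On 5 arrays Btg1 rose 1.47-fold (difference 0.56, SE 0.087, limma adjusted p = 0.0402) and Gadd45b 1.58-fold (difference 0.66, SE 0.10, adjusted p = 0.0402). With all 6 arrays the differences were 0.36 (adjusted p = 0.408) and 0.49 (adjusted p = 0.272). Both calls were lost when any array other than Hspa4+/+ replicate 2 was left out of the 5. The adjusted p of Btg1 was then 0.143 without Hspa4-/- replicate 2, 0.0830 without Hspa4-/- replicate 3, 0.197 without Hspa4+/+ replicate 1 and 0.228 without Hspa4+/+ replicate 3. For Gadd45b the same 4 values were 0.145, 0.131, 0.197 and 0.225. Subtracting array medians also ended both calls, at 0.0604 and 0.0721, and quantile normalisation (0.0578) and an intensity trend (0.0560) ended that of Btg1.

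The mitosis list, with motor proteins, condensins and kinetochore genes, had 55 of 56 genes measured. It showed the same lean as the mitosis members, with 39 lower on 6 arrays and 42 on 5, or 70.9% and 76.4%, and medians of −0.057 and −0.068. Of its 55 genes 49 were among the lowest 50% by mean value, where 64.7% and 73.2% of all genes were lower. With quantile normalisation the median on 6 arrays was −0.027 with 33 lower. Leaving out the lowest 50% kept 6 genes of the list. Of these, 3 were lower and 3 higher on 6 arrays (median −0.0015), and 4 lower and 2 higher on 5 (median −0.015). Its median by array was 0.0027, −0.045 and −0.081 on Hspa4-/- replicates 1 to 3, and that of the whole lowest 50% was 0.015, −0.032 and −0.063 on the same arrays. Groups did not overlap for 12 of the 55 on 6 arrays, 10 lower and 2 higher, or 21.8%. The share was 15.1% of all genes and 10.8% of the lowest 50%. On 5 arrays 23 of the 55 did not overlap, 19 lower and 4 higher, or 41.8%. There the share was 33.3% of all genes and 28.7% of the lowest 50%. Smc2, a core condensin subunit, read 5.75, 5.83 and 5.89 against 6.08, 6.09 and 6.09, without overlap and with the smallest p of the list on 6 arrays (difference −0.26, SE 0.065, limma adjusted p = 0.227, and −0.23 on 5 arrays, adjusted p = 0.172). Kif23, a kinesin of cytokinesis, read 5.98, 5.91 and 5.92 against 6.19, 6.12 and 6.12 (difference −0.21, limma adjusted p = 0.274).

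The replication list (42 of 43 measured) had medians of −0.0093 and 0.00075, with 23 lower on 6 arrays and 21 on 5. Groups did not overlap for 5 of the 42 on 6 arrays, or 11.9%, against 15.1% of all genes. Orc4, a subunit of the origin recognition complex, read 7.74, 7.78 and 7.76 against 8.08, 7.85 and 8.01, without overlap (difference −0.22, limma adjusted p = 0.321). Pola1, the catalytic subunit of the polymerase that lays down primers, read 6.24, 6.44 and 6.45 against 6.71, 6.47 and 6.64 (difference −0.23, limma adjusted p = 0.363). Both differences were of the size of that of Cdkn1c.

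The E2F, pocket protein and DREAM list, whose products repress or activate the cell cycle promoters, had 15 of 16 genes measured and medians of 0.021 and 0.035. Its smallest p values were for E2f8, an atypical repressor (difference 0.14, limma adjusted p = 0.605), and Lin9, a subunit shared by the DREAM and MuvB complexes (−0.11, limma adjusted p = 0.647).

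The list of regulators of cardiomyocyte division after birth (23 of 25 measured) had 15 genes higher on 6 arrays and 17 on 5, with medians of 0.044 and 0.060. Only 3 of the 23 lay in the lowest 50% of genes by mean value. In the highest 50%, 5709 of 10120 genes were higher on 6 arrays and 6058 on 5, with medians of 0.022 and 0.037. Groups did not overlap for 2 of the 23 on 6 arrays, or 8.7%, against 15.1% of all genes and 19.5% of the highest 50%. On 5 arrays 7 did not overlap, or 30.4%, against 33.3% and 38%. At an unadjusted limma p under 0.05 there were 5 of the 23 in each form, or 21.7%. The shares on 6 and 5 arrays were 11.2% and 14.9% of all genes, and 18.6% and 23.4% of the highest 50%. Erbb2, the coreceptor for neuregulin, read 7.63, 7.79 and 8.13 against 7.37, 7.43 and 7.30, without overlap. Its difference was 0.49 on 6 arrays (SE 0.12, limma adjusted p = 0.221) and 0.60 on 5 (adjusted p = 0.0586). On 5 arrays it passed the threshold in 6 of 12 alternatives, over which the adjusted p ran from 0.0229 to 0.256, and on 6 arrays in 0 of 13. Igf2, a growth factor of fetal tissue, read 8.96, 9.15 and 9.06 against 8.58, 8.92 and 8.73, also without overlap (difference 0.31, limma adjusted p = 0.274). On 5 arrays its difference was 0.36 (adjusted p = 0.161), and it passed in 1 of 12 alternatives, without Hspa4+/+ replicate 2 (adjusted p = 0.0275).

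**Figure D4:**
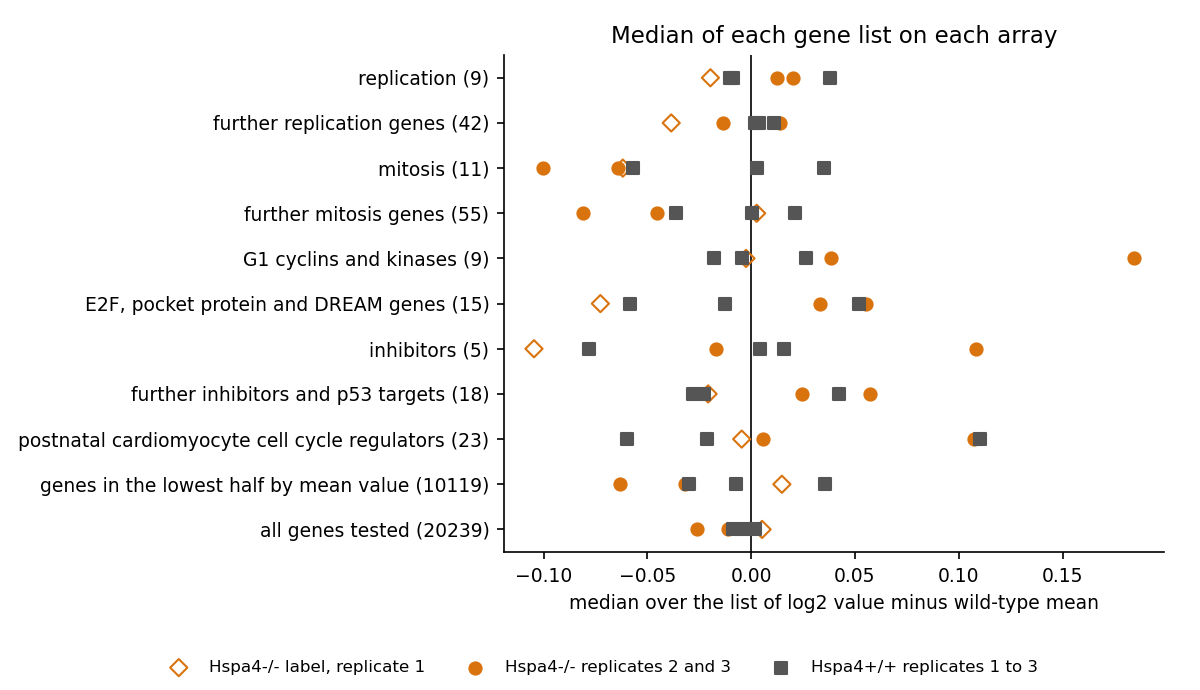
Median over each list of the log2 value minus the wild-type mean, per array, with the number of measured genes in brackets. The mitosis lists sit lowest on Hspa4-/- replicate 3, at −0.10 and −0.081, the G1 members sit highest there, at 0.18, and the lowest 50% of genes by mean value are at −0.063 on that array.

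Markers of the cell types a ventricle holds were read from the same arrays, as summed linear levels relative to the wild-type mean. The cardiomyocyte markers were higher in 10 of 10 cases, with sums of 105% to 108% under the Hspa4-/- label and 97.2% to 103% under Hspa4+/+. None was in the lowest 50% of genes by mean value. The same held for the fibroblast and endothelial markers, so this does not set heart muscle apart. Macrophage markers summed to 90.7% to 96.3% against 98.1% to 102%, with 7 of 10 lower on 6 arrays and 6 of 10 on 5. The groups' sums did not overlap for cardiomyocyte or for macrophage markers, on 6 arrays or on 5. Fibroblast sums were 95.8% to 110% against 97.8% to 103%, endothelial 100.4% to 112% against 97.3% to 103%, and smooth muscle and pericyte 96.2% to 118% against 96.7% to 102.5%. On 5 arrays the smooth muscle and pericyte sums were 107.7% to 118%, without overlap, with 8 of 10 markers higher. An unadjusted limma p under 0.05 was reached there by 6 of the 10, 5 higher and 1 lower. Cardiomyocyte and macrophage markers had 4 of 10 each, endothelial 3 of 10 and fibroblast 2 of 10. The share was 14.9% of all genes and 23.4% of the highest 50% by mean value, where most of these markers lay. Lymphocyte and thymus sums (10 of 12 measured) were 91.4% to 99.7% against 92.7% to 105%, and erythroid sums (6 of 10 measured) 69.3% to 82.7% against 75.8% to 112%. No marker passed the test in either form. The part of the cell mix in the cell cycle values was not tested, and fewer dividing cells cannot be told apart from less RNA per cell in bulk tissue.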

How the data were processed

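RNA of heart ventricles from 3 mice per genotype was measured on Affymetrix Mouse Gene 1.0 ST arrays. The values are log2 values, 1 per probe set and array, as deposited by the authors, who used affy in R 2.13.0, per the submitters' processing notes. For background, array scaling and probe summary the method is not stated in the sources used here, and signal over background is unknown, so the number of arrays limits the precision. Of 21225 probe sets, 20239 carried 1 gene symbol in the array's annotation table, 0 carried several and 986 none. Values were kept as deposited, and the 20239 genes were tested with limma 3.58.1 (lmFit and eBayes, R 4.3.3), with no filter and a threshold of 0.05 on p-values adjusted over all 20239 by Benjamini-Hochberg. Differences are Hspa4-/- minus Hspa4+/+ means of log2 values, with limma's moderated SE and 95% confidence interval. The fit was repeated without the array labelled Hspa4-/- replicate 1 (2 against 3). The fits were tested on simulated data with changes larger than any member showed and with no array against its label. Their power to find changes as small as those of the members was not tested.

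Members, gene lists and alternatives were chosen with earlier results of these data known. Values on every array are given for the 10 members with the smallest p in each form and for Mki67, Top2a, Cdk1, Mcm2, Ccnd1, Ccnd2, Cdkn1a, Cdkn1b, Cdkn1c and Meis1. From each further list the genes past the threshold are given, or the 2 with the smallest p on 6 arrays. Promoters were taken from RefSeq (GRCm38.p6), and those printed have the most motif matches among the members given with values on every array. Samples with the same replicate number were not taken as pairs, since their deviations correlated by −0.17, 0.092 and −0.25 over genes.

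The alternatives dropped genes with low means (the lowest 25% or 50%), normalised by quantiles, subtracted array medians, weighted arrays, used an intensity trend, took the replicate number as a block, or left out each array in turn.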

Additional observations from a re-analysis of the deposited data

How the results depend on the processing

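No member passed the threshold in any of the 13 alternatives on 6 arrays or the 12 on 5 arrays, where the smallest adjusted p were 0.0840 and 0.0701. The mitosis median stayed below 0 in each alternative that gave a value, from −0.082 to −0.031 on 6 arrays and from −0.10 to −0.049 on 5; leaving out the lowest 50% of genes left no mitosis member on 6 arrays. The sign changed in some alternative for 17 of 34 members on 6 arrays and 12 on 5.

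The number of all genes past the threshold, 0 on 6 arrays and 89 on 5, was 2 and 156 without the lowest 25% of genes, 2 and 167 without the lowest 50%, 115 and 321 with array weights, 2 and 134 with the replicate block, and 36 on 5 arrays with array medians subtracted. The filters test fewer genes; for the others the cause was not tested. The G1 median on 5 arrays was 0.14 and 0.18 under the filters, where fewer members enter. Array weights gave Rrm1 0.018 and Bub1 −0.015 on 6 arrays, and Cdkn2c −0.0059 and Meis1 −0.0077 on 5. Quantile normalisation gave a replication median of −0.053, Ccne2 0.029, Cdk6 −0.0027 and Cdkn2c 0.00084 on 6 arrays, and Mcm7 −0.00025, Ccna2 0.034, Ccne2 0.019, Cdkn1a −0.0020, Meis1 −0.049 and Lin9 0.0021 on 5. Bub1 was −0.0028 on 6 arrays with medians subtracted.

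The replicate numbers were not taken as pairs, and not every array correlated best with its own number. Hspa4-/- replicate 2 did so among the Hspa4+/+ arrays (0.092). The replicate block on 5 arrays gave a replication median of 0.055, Ccna2 0.025, Ccne2 0.0071 and Cdkn1a −0.069, and it changed no member's call.

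Leaving out each array in turn, with an arm of 1 array assumed to vary like the rest, gave 0 to 112 genes past the threshold on 6 arrays (89 without the array labelled Hspa4-/- replicate 1, 112 without Hspa4+/+ replicate 2, and 0 without any other). On 5 arrays it gave 2 to 875: 25 without Hspa4-/- replicate 2, 19 without Hspa4-/- replicate 3, 6, 875 and 2 without Hspa4+/+ replicates 1, 2 and 3. On 6 arrays the replication median ran from −0.061 to 0.025 and the inhibitor median from −0.061 to 0.083. Differences ran from −0.16 to 0.015 for Mcm2, −0.10 to 0.080 for Mcm3, −0.023 to 0.075 for Mcm4, −0.094 to 0.045 for Mcm5, −0.0061 to 0.054 for Mcm7 and −0.14 to 0.077 for Rrm1. They ran from −0.066 to 0.0040 for Ccna2, −0.069 to 0.056 for Aurka, −0.0014 to 0.039 for Plk1, −0.056 to 0.032 for Bub1 and −0.10 to 0.010 for Cdc20. They ran from −0.27 to 0.077 for Ccnd1, −0.070 to 0.013 for Ccnd2, −0.054 to 0.038 for Ccne2, −0.12 to 0.14 for Cdk6, −0.061 to 0.083 for Cdkn2c and −0.17 to 0.011 for Meis1. On 5 arrays the medians ran from −0.00046 to 0.055 for replication, 0.038 to 0.18 for G1 and −0.017 to 0.11 for inhibitors. Differences there ran from −0.0011 to 0.16 for Mcm3, −0.00046 to 0.10 for Mcm4, −0.055 to 0.084 for Mcm5, −0.0027 to 0.058 for Mcm7, −0.046 to 0.025 for Ccna2 and −0.050 to 0.12 for Bub1. They ran from −0.39 to 0.30 for Ccnd1, −0.091 to 0.0060 for Ccnd2, −0.085 to 0.0071 for Ccne2, −0.069 to 0.30 for Cdkn1a, −0.017 to 0.13 for Cdkn2c and −0.15 to 0.17 for Meis1. The cause of these changes of sign was not tested.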
